A study of Caenorhabditis elegans with 6 samples.

Results

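The protein machinery that releases synaptic vesicles was followed through 10 presynaptic genes of Caenorhabditis elegans (rab-3, snb-1, unc-64, ric-4, snt-1, unc-13, unc-18, unc-10, cpx-1 and unc-104). They were taken by name, through the sequence name that the array gives each probe with its isoform letter removed. They had 24 of the 22490 gene probes on the array, between 1 probe (ric-4, unc-18 and cpx-1) and 6 probes (unc-13) per gene. Whole nematodes of the wild-type strain N2 were reared from the egg at 24 °C on agar with Escherichia coli OP50 as food. The treated group (CPF) had 0.5 mg/l chlorpyrifos in the agar, and the control group had its solvent acetone at an equivalent concentration. CPF and control RNA were hybridised together on 6 arrays of long oligonucleotide probes that read both dyes, 3 with the CPF sample in Cy5 and 3 with it in Cy3. Per the methods of the study each sample pooled 4 dishes, and the 6 replicates were independent. The labels give an age of 72 h and the stage L3/L4. The methods give a shorter time for late L3 animals at 24 °C, and 72 h for animals reared at the lower temperature of the study. The files do not settle which age holds.

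A neuron releases transmitter when a vesicle fuses with its plasma membrane at the active zone. Fusion is driven by SNARE proteins, where synaptobrevin on the vesicle zips together with syntaxin and SNAP-25 on the plasma membrane, and is set up by priming factors and triggered by calcium through synaptotagmin. Chlorpyrifos is an organophosphate whose oxon form inhibits acetylcholinesterase, the enzyme that clears acetylcholine from the synapse. In C. elegans, mutants with reduced release of acetylcholine resist inhibitors of acetylcholinesterase, and the name ric (resistance to inhibitors of cholinesterase) comes from such screens. The comparison of CPF with control asks whether transcripts of the release machinery differed between these animals. RNA came from whole animals, in which neurons are a small part, so that fewer neurons and less RNA per neuron cannot be told apart.

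Each ratio below is log2 of CPF over control, positive where the CPF channel was brighter, and each level is the normalised log2 brightness of a channel. Directions are those the scanner files have by their labels. The authors also deposited log ratios, whose columns each matched an array with the dyes the other way round, so by the labels of those columns every sign here would turn. A probe was tested where its brightness was above local background in at least 6 of 12 channels, which held for 11033 gene probes (49.1%) and for none of the 618 empty spots. A call means an adjusted p under 0.05 (limma, Benjamini-Hochberg adjustment), which 386 probes had. The array CPF in Cy3 replicate 1 stood apart, with an SD of the log2 ratios over tested probes of 0.900 against 0.424 to 0.468 on the other arrays, and with its Cy5 channel scanned at a detector setting of 60 against 55.

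Transcripts of 9 of the 10 genes were bright enough to test, and no probe among them passed the threshold for a difference between CPF and control. The 9 genes had 11 tested probes of 24 (45.8%, against 49.1% of all gene probes). At an adjusted p of 0.05, 0 of the 11 were called in limma, against 3.50% of all tested probes (1.33% higher and 2.17% lower). The balance of those calls over the array, 147 higher and 239 lower, depended on the scaling, with 760 and 521 under scale normalisation between arrays and 4 and 50 under median centring. At an unadjusted p under 0.05 there were 3 of 11, against 27.3% of all tested probes. The linear model named in the methods of the study called 0 of the 11 after adjustment. It called only 8 of all 11033 tested probes, so that count says little about the members. A p that misses the threshold does not show that levels were equal. The 95% interval of a fitted ratio covers the scatter of that probe over these 6 arrays, and not a bias of the probe. The intervals of the snb-1 probes, 0.18 to 1.32 (spot 4485) and -0.6 to 0.01 (spot 6421), did not overlap.

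Detection varied widely between the genes. All 12 channels were above background for 4 member probes, 1 each of snb-1, unc-64, ric-4 and rab-3. For 10 member probes no channel was above background, and 3 more were above it in 1 or 2 channels. Over all 24 probes, 67 of 144 CPF readings (46.5%) and 55 of 144 control readings (38.2%) were above background, against 49.2% and 44.1% over all gene probes. The widest gap within an array was on CPF in Cy3 replicate 1, where 13 member probes were above background in the CPF channel and 6 in the control channel, and where 56.1% and 38.3% of all gene probes were. On CPF in Cy5 replicate 1, CPF in Cy3 replicate 2 and CPF in Cy3 replicate 3, both channels had the same number of member probes above background (11, 11 and 12). No member probe had saturated pixels.

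**Figure D1:**
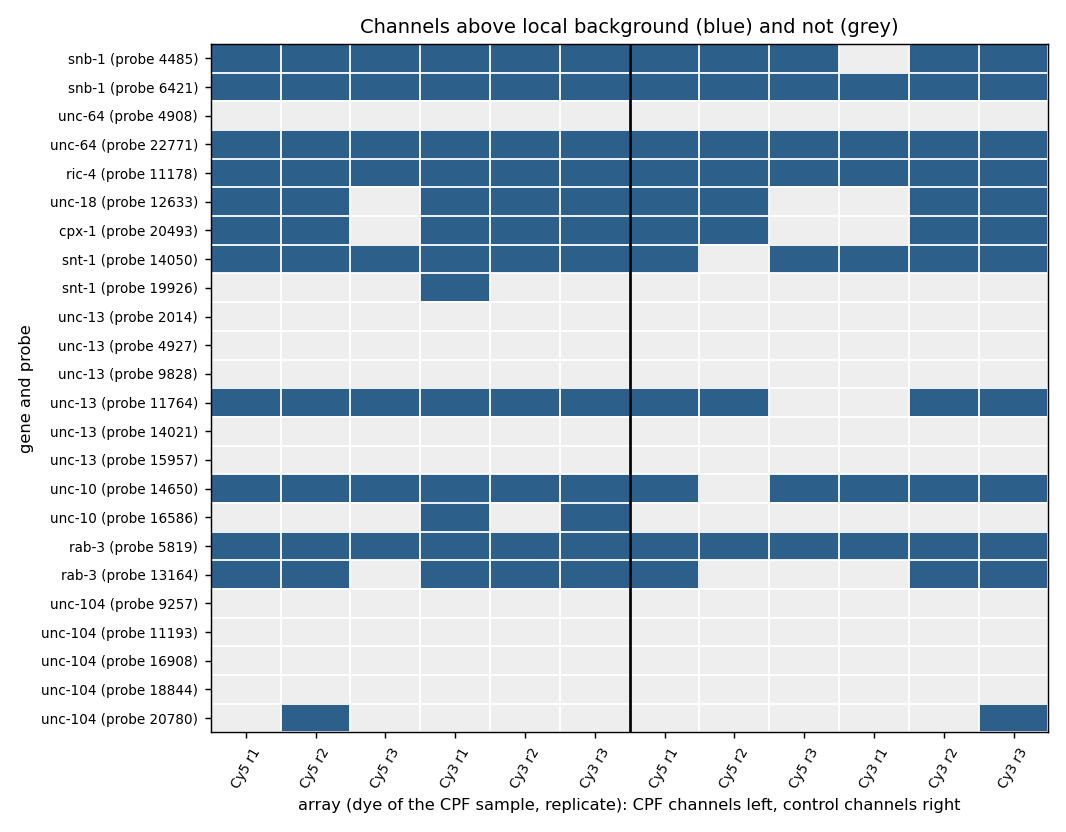
Detection of the 24 probes (rows) of the 10 genes in each of 12 channels (columns, the 6 CPF channels left of the line and the 6 control channels right of it, labelled by the dye of the CPF sample and the replicate). Blue marks a spot above local background, and 10 rows hold no blue at all, among them 5 of 6 probes of unc-13 and 4 of 5 of unc-104.

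The SNARE proteins themselves had the fullest detection, with every channel above background for at least 1 probe of each gene, and their ratios pointed both ways. snb-1 (T10H9.4, chromosome V, 6655562 to 6656501 in WBcel235) encodes synaptobrevin, the vesicle SNARE, and had 2 tested probes that disagreed. On spot 4485 the ratios were 0.11, 0.68 and 0.19 on the CPF in Cy5 arrays (replicates 1, 2 and 3) and 2.42, 0.80 and 0.29 on the CPF in Cy3 arrays. All 6 were positive, while CPF levels (9.89 to 11.34) and control levels (7.73 to 10.68) overlapped. The fitted ratio was 0.75 ± 0.25 (SE, n = 6 arrays, 1.68-fold), with a 95% interval of 0.18 to 1.32 and an adjusted p of 0.113.

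The highest ratio of that probe came with the one control reading that was not above background, at a level of 7.73 against 9.70 to 10.68 on the other arrays. With CPF in Cy3 replicate 1 left out, the fitted ratio was 0.44 (adjusted p = 0.0687). The second probe, spot 6421, was above background in all 12 channels and had ratios of -0.19, -0.22, -0.15, -0.89, -0.37 and 0.08 on the arrays in the same order. It was negative on 5 of 6 arrays, with a fitted ratio of -0.29 ± 0.13 (adjusted p = 0.197) and of -0.17 without CPF in Cy3 replicate 1.

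unc-64 (F56A8.7, chromosome III, 13277259 to 13283887) encodes syntaxin, a SNARE of the plasma membrane. Its tested probe, spot 22771, had ratios of -0.60, 0.07, -0.01, -0.95, -0.17 and -0.43. It was negative on 5 of 6 arrays, and the CPF levels (8.26 to 9.83) overlapped the control levels (8.86 to 10.78). The fitted ratio was -0.35 ± 0.14 (unadjusted p = 0.0384, adjusted p = 0.161), and it was -0.24 without CPF in Cy3 replicate 1. The other probe of unc-64, spot 4908, was not above background in any channel.

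ric-4 (Y22F5A.3, chromosome V, 10261131 to 10270314) encodes SNAP-25, the partner of syntaxin on the plasma membrane. Its 1 probe, spot 11178, had ratios of 0.08, 0.52, -0.11, 1.72, 0.21 and -0.18. The arrays were split, with 4 positive and 2 negative, and 1 array was far above the rest. The fitted ratio of 0.37 ± 0.23 (adjusted p = 0.308) became 0.09 without CPF in Cy3 replicate 1.

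**Figure D2:**
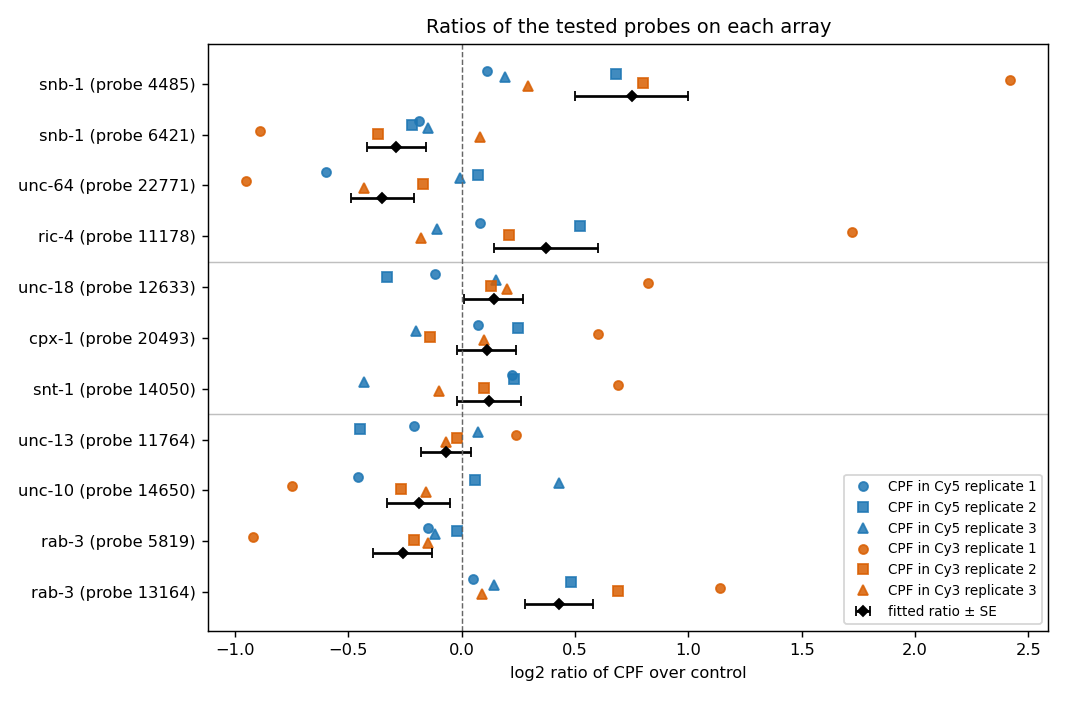
Ratio of CPF over control (log2) of the 11 tested probes on each of the 6 arrays (blue, CPF in Cy5; orange, CPF in Cy3; the shape gives the replicate), with the fitted ratio and its SE in black. Grey lines part the SNARE proteins, their regulators, and the priming and active zone proteins. The orange circles, CPF in Cy3 replicate 1, lie farthest from 0 for 10 of the 11 probes, up to 2.42 for snb-1.

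For the proteins that act directly on the SNARE complex the fitted ratios were 0.11 to 0.14, and none was called. unc-18 (F27D9.1, chromosome X, 7682896 to 7686037) encodes the syntaxin-binding protein of the Sec1/Munc18 kind. Its probe, spot 12633, had ratios of -0.12, -0.33, 0.15, 0.82, 0.13 and 0.20, with a fitted ratio of 0.14 ± 0.13 (adjusted p = 0.475). It was above background in 5 CPF and 4 control channels, and the fitted ratio without CPF in Cy3 replicate 1 was 0.03. Its sign turned in 3 of the 23 other settings tried.

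cpx-1 (Y73E7A.4, chromosome I, 1594649 to 1596216) encodes complexin, which binds the assembled SNARE bundle and holds or promotes fusion. Spot 20493 had ratios of 0.07, 0.25, -0.20, 0.60, -0.14 and 0.10. The fitted ratio was 0.11 ± 0.13 (adjusted p = 0.563), and 5 CPF and 4 control channels were above background. The arrays scattered on both sides of 0, and without CPF in Cy3 replicate 1 the fitted ratio was 0.01.

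snt-1 (F31E8.2, chromosome II, 6810963 to 6816433) encodes synaptotagmin, the calcium sensor on the vesicle. Spot 14050 had ratios of 0.22, 0.23, -0.43, 0.69, 0.10 and -0.10, and a fitted ratio of 0.12 ± 0.14 (adjusted p = 0.605). It was 0.0041 with CPF in Cy3 replicate 1 left out and 0.23 with CPF in Cy5 replicate 3 left out. Levels of the CPF channels (8.21 to 8.97) and the control channels (7.91 to 8.84) overlapped almost wholly. A second probe, spot 19926, was above background only in the CPF channel of CPF in Cy3 replicate 1.

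Of the proteins of priming and the active zone, rab-3 had 2 probes that disagreed and unc-13 and unc-10 had 1 usable probe each. unc-13 (ZK524.2, chromosome I, 7422785 to 7454116) encodes the Munc13 protein that opens syntaxin and makes vesicles ready for fusion. Spot 11764 was the only 1 of its 6 probes that could be tested, and the other 5 were not above background in any channel. Its ratios were -0.21, -0.45, 0.07, 0.24, -0.02 and -0.07, with a fitted ratio of -0.07 ± 0.11 (adjusted p = 0.682). All 6 CPF channels and 4 control channels were above background, and the fitted ratio lay between -0.33 and 0.18 at 95% confidence. No member probe had a smaller fitted ratio in size, and this was the 1 probe without its widest ratio on CPF in Cy3 replicate 1.

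unc-10 (T10A3.1, chromosome X, 7272317 to 7280322) encodes RIM, a scaffold of the active zone that binds rab-3. Spot 14650 had ratios of -0.46, 0.06, 0.43, -0.75, -0.27 and -0.16. The fitted ratio was -0.19 ± 0.14 (adjusted p = 0.391), with means of 0.01 on the CPF in Cy5 arrays and -0.39 on the CPF in Cy3 arrays. Leaving out CPF in Cy5 replicate 1 moved it to -0.07, and leaving out CPF in Cy3 replicate 1 moved it to -0.10. A second probe, spot 16586, was above background in 2 CPF channels and 0 control channels, both on CPF in Cy3 arrays, and no fold is given for it.

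rab-3 (C18A3.6, chromosome II, 5721767 to 5727853) encodes the small GTPase of the synaptic vesicle. Spot 5819, named after the isoform C18A3.6a, had ratios of -0.15, -0.02, -0.12, -0.92, -0.21 and -0.15. All 6 were negative, and the fitted ratio was -0.26 ± 0.13 (adjusted p = 0.212), or -0.14 without CPF in Cy3 replicate 1. Spot 13164, named after C18A3.6b, had ratios of 0.05, 0.48, 0.14, 1.14, 0.69 and 0.09.

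All 6 ratios of that second probe were positive, with a fitted ratio of 0.43 ± 0.15 (unadjusted p = 0.0181, adjusted p = 0.119) and of 0.31 (adjusted p = 0.168) when CPF in Cy3 replicate 1 was left out. Fewer of its channels were detected, with 5 CPF and 3 control channels above background, against 12 of 12 channels for spot 5819. The control channel was not above background on CPF in Cy3 replicate 1 (ratio 1.14) and CPF in Cy5 replicate 2 (0.48). On CPF in Cy5 replicate 3 neither channel was. Its CPF levels (7.31 to 8.71) and control levels (6.83 to 8.62) overlapped. The files do not place either probe within the gene, so which transcripts each one reads is not known here.

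unc-104 (C52E12.2, chromosome II, 6994987 to 7010624) encodes the kinesin that carries precursors of synaptic vesicles along the axon, and it could not be tested. Of its 5 probes, spots 9257, 11193, 16908 and 18844 were not above background in any channel. Spot 20780 was above it in 1 CPF channel (CPF in Cy5 replicate 2, level 7.51) and 1 control channel (CPF in Cy3 replicate 3, level 6.80). No ratio of unc-104 is therefore read.

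The 2 genes with a pair of tested probes, snb-1 and rab-3, showed the same picture, 1 probe with a positive and 1 with a negative fitted ratio. For snb-1 the ratio of spot 4485 exceeded that of spot 6421 by 1.04 on average (SD 1.18), on all 6 arrays and by 0.21 to 3.32. For rab-3 the ratio of spot 13164 exceeded that of spot 5819 by 0.69 (SD 0.72), on all 6 arrays and by 0.20 to 2.06. The exact sign-flip permutation test over the 6 arrays (two-sided) gave p = 0.0312 for each gene, which is the smallest p that 6 arrays allow, and 0.0312 after adjustment over the 2 comparisons. Such a pattern was common on the array, as 112 of the 613 genes with exactly 2 tested probes (18.3%) had probes that differed the same way on all 6 arrays and 221 (36.1%) had fitted ratios of opposite sign. The median difference in size over the 613 genes was 0.27, and 2.12% of them had a difference as large as that of snb-1 and 9.62% as large as that of rab-3.

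CPF in Cy3 replicate 1 gave the widest gap for both genes. Without it the mean difference was 0.59 (SD 0.43) for snb-1 and 0.42 (SD 0.29) for rab-3, positive on all 5 arrays, where the exact test gave p = 0.0625, the smallest that 5 arrays allow. No single direction can be given for snb-1 or rab-3 as a gene.

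**Figure D3:**
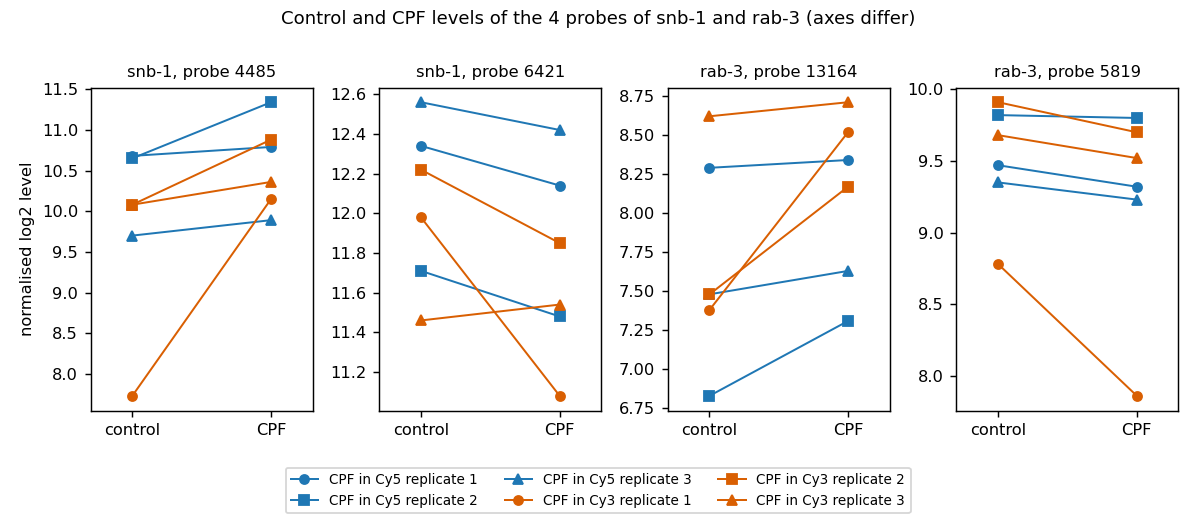
Normalised log2 levels in the control and CPF channels of each array for both probes of snb-1 and of rab-3, with a line per array and an axis of its own for each probe. Lines rise on all 6 arrays for snb-1 spot 4485 and rab-3 spot 13164, fall on all 6 for rab-3 spot 5819, and fall on 5 of 6 for snb-1 spot 6421.

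Taken over the brightest tested probe of each gene, the 9 measured genes had a median ratio of -0.07, with 4 positive and 5 negative, against a median of 0.01 over all 9947 tested genes. That choice takes the negative probe of both snb-1 and rab-3. With their other probe the median was 0.12, with 6 positive and 3 negative, and over all 11 probes it was 0.11, with 6 positive and 5 negative, so the members' median has no settled sign. By array, the median over the brightest probes of the 9 genes was -0.15, 0.06 and -0.11 on the CPF in Cy5 arrays and 0.24, -0.14 and -0.10 on the CPF in Cy3 arrays. Of the 11 probes, 3 had the same sign on all 6 arrays, against 16.6% of all tested probes, and 5 on at least 5 arrays, against 44.8%. The spread of the members over the arrays followed that of the whole array, as the SD over the 11 probes was 1.15 on CPF in Cy3 replicate 1 and 0.204 to 0.379 on the others.

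Leaving out 1 array changed the count of called members once. Leaving out CPF in Cy3 replicate 3 brought 2 of the 11 probes past the threshold, snb-1 spot 4485 (0.97, adjusted p = 0.0272) and rab-3 spot 13164 (0.57, adjusted p = 0.0319), while it raised the calls over the array from 386 to 1323. Leaving out any other single array called 0 member probes. Both probes have a partner on the same gene with a negative ratio, which was not called in that fit.

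**Figure D4:**
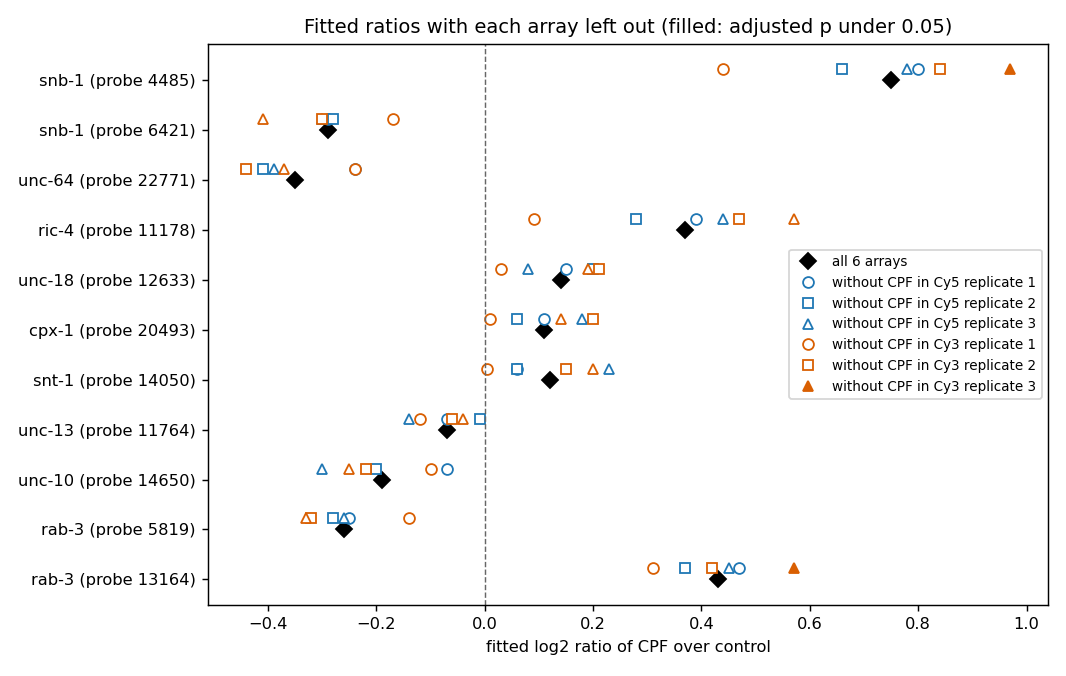
Fitted ratio (log2) of each tested probe with all 6 arrays (black diamond) and with each array left out in turn (coloured by the dye of the CPF sample, shaped by replicate, filled where the adjusted p was under 0.05). Open circles in orange, without CPF in Cy3 replicate 1, lie closer to 0 than the diamond for 10 of 11 probes, and the filled points are snb-1 spot 4485 and rab-3 spot 13164 without CPF in Cy3 replicate 3.

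Of 7 lists of genes around the release machinery, 1 held a called gene. Per gene, by its brightest tested probe, 3.31% of all tested genes were called (0.965% higher and 2.34% lower), and 0 of the 9 measured members were. An unadjusted p under 0.05 was found for 25.4% of all tested genes and for 1 of the 9. Among proteins of the active zone and vesicle tethering, 13 of 18 genes on the array were tested and 0 were called, with 4 at an unadjusted p under 0.05. The smallest p-values there belonged to aex-6, the Rab27 GTPase (1.07 ± 0.26, adjusted p = 0.0617, positive on 6 of 6 arrays, 0.36 to 3.02), and cab-1 (-0.51 ± 0.13, adjusted p = 0.0712, negative on 6 of 6). aex-6 was called without CPF in Cy3 replicate 1 (0.73, adjusted p = 0.00444) or replicate 3 (1.25, adjusted p = 0.0195).

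Of vesicle proteins and paralogs of the members, 6 of 14 genes were tested, 1 was called higher and 0 lower. That gene was scm-1, a secretory carrier membrane protein, at 0.76 ± 0.15 (adjusted p = 0.0366), with ratios of 0.41 to 1.56 on the 6 arrays and 4 of 6 control channels above background. Its call held without CPF in Cy3 replicate 1 (0.61, adjusted p = 0.0133) or replicate 3 (0.88, adjusted p = 0.0104) and was lost without CPF in Cy5 replicate 1, 2 or 3 or CPF in Cy3 replicate 2 (adjusted p of 0.104 to 0.164). snb-2, a synaptobrevin paralog, had -0.44 ± 0.10 (adjusted p = 0.0547), was negative on all 6 arrays, and was called with CPF in Cy3 replicate 1 left out (-0.40, adjusted p = 0.0444).

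For vesicle endocytosis and recycling, which retrieves vesicle membrane after release, 14 of 16 genes were tested and 0 called, with 2 at an unadjusted p under 0.05 (apb-1 and apa-2, clathrin adaptor subunits, each at 0.41). For the G protein pathways that control release, 16 of 18 were tested and 0 called, with 6 at an unadjusted p under 0.05. These included kin-1, the catalytic subunit of protein kinase A (1.23 ± 0.31, adjusted p = 0.0652, 0.14 to 3.45), and ric-8, an activator of G protein alpha subunits (0.66 ± 0.19, adjusted p = 0.0861). Both were positive on all 6 arrays. kin-1 was called when CPF in Cy3 replicate 1 (0.87, adjusted p = 0.0213) or replicate 3 (1.58, adjusted p = 0.00626) was left out, and ric-8 when replicate 3 was (0.85, adjusted p = 0.0178).

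Of SNARE proteins of other membranes, listed with some proteins of the Sec1/Munc18 kind, all 22 genes on the array were tested and 0 called (4 at an unadjusted p under 0.05, median 0.04). Axonal transport had 17 of 21 genes tested, 0 called and 1 at an unadjusted p under 0.05 (klc-2, a kinesin light chain, -0.32, adjusted p = 0.169). None of the 4 vesicular transmitter transporters on the array was bright enough to test. The medians of the other lists were -0.09 for the active zone, -0.08 for vesicle proteins, -0.02 for endocytosis, -0.03 for G proteins and -0.01 for axonal transport.

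Of 15 neuron markers on the array, 8 were tested, and rgef-1, unc-33, unc-86, tph-1, ttx-3, osm-6 and che-3 were too dim. Called neuron markers numbered 0, with 5 at an unadjusted p under 0.05, and the 8 ratios ran from -0.48 to 0.66 (4 positive and 4 negative, median -0.08). Their mean level was 10.37 to 10.70 in CPF channels and 9.98 to 10.81 in control channels. The 2 with the smallest p, sbt-1 and egl-21, which serve the processing of neuropeptides, had -0.44 (adjusted p = 0.0652) and -0.48 (adjusted p = 0.0734), negative on all 6 arrays.

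Some markers of the germ line differed between the same samples. Of 10 tested sperm markers 2 were called higher. These were msp-50 (0.82, adjusted p = 0.0499, positive on 6 of 6 arrays) and msp-63 (0.64, adjusted p = 0.0363, positive on 4 of 6). The 10 fitted ratios had a median of 0.58, with 10 of 10 positive and 8 at an unadjusted p under 0.05, against 25.4% of all tested genes. The list was drawn mainly from the msp family, so its genes need not be independent of each other. The median of the sperm markers was 0.71, 1.06 and 1.56 on the CPF in Cy5 arrays and 0.41, 0.05 and -0.15 on the CPF in Cy3 arrays, and their mean level was 12.58 to 14.09 in CPF channels and 11.21 to 13.69 in control channels. Of 12 oocyte and germ line markers 2 were called higher (gld-1, 0.61, adjusted p = 0.0335, and oma-2, 0.57, adjusted p = 0.0467), with a median of 0.39, 11 of 12 positive, 7 at an unadjusted p under 0.05 and mean levels of 9.54 to 11.02 and 9.15 to 10.74. These 4 calls held without CPF in Cy3 replicate 1 or replicate 3 and were lost without any other single array. With the replicate number as a block, gld-1 kept its call and msp-50 (adjusted p = 0.0655), msp-63 (0.0510) and oma-2 (0.0626) lost theirs. Over 24 other settings, msp-50 was called in 9, msp-63 in 14 and gld-1 in 16, and oma-2 was called in 11 of 23.

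Of 12 muscle markers none was called (2 at an unadjusted p under 0.05), of 10 intestine markers 1 was lower (cpr-1, -0.97, adjusted p = 0.0366, 5 at an unadjusted p under 0.05, held only in the same 2 of 6 fits with an array left out) and of 10 hypodermis markers none was called (4 at an unadjusted p under 0.05). The part of the germ line share of RNA in the ratios of the release machinery was not tested.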

How the data were processed

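Scanner files of 6 dual-channel arrays were used. The authors read them with ScanArray Express per the file headers. Spot intensity was deposited raw for both dyes, with its local background and without normalisation. A percent of saturated pixels was deposited for every spot and dye. The authors computed log2 ratios with limma (version 3.2.3 in the submitters' processing notes) by loess and Aquantile and stripped them of outlying values. These ratios were an alternative here. Their columns were placed and given their sign by the match to an array (size of the correlation 0.868 to 0.989 over 5963 bright probes).

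Mean intensity was corrected with normexp (offset 50), which pulls ratios of dim spots towards 0, and normalised by loess (span 0.3) within and Aquantile between arrays. A channel counted as above background where the spot median exceeded the local background median by 2 background SDs, and a probe was tested with at least 6 of 12 such channels. Signal over background and the 6 arrays limit the precision. Ratios were fitted over all 11033 tested probes in limma 3.58.1 (lmFit and eBayes, two-sided, CPF and dye terms, R 4.3.3) with Benjamini-Hochberg adjustment and a threshold of 0.05, after a check on simulated data. The study's own model, fitted to single channels without its removal of outlying values, was an alternative. Plots used Python 3.11.15 with matplotlib 3.10.9.

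Sequence names were matched to genes for 21384 probes and platform gene numbers for 29, and 1077 kept the name in the file, while 742 control and empty spots were left out. Positions are those of assembly WBcel235. All probes of the 10 genes are described, with the 2 genes of smallest p, or up to 4 called, from each of 7 other presynaptic lists and up to 2 from each of 6 marker lists. Members and lists were chosen with earlier results of these data known. Alternatives changed the background correction, the normalisation, the filter, the model and the arrays.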

Additional observations from a re-analysis of the deposited data

Results flagged for a closer look

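Over the 6 arrays, 3 of the 11 tested member probes had a single array far from the others, and for each it was CPF in Cy3 replicate 1. The gap to the nearest array, divided by the whole range, was above Dixon's 95% critical value for 6 values, which chance passes for about 1 group in 20. Over all tested probes of the array 9.97% passed it. The ratio of snb-1 spot 4485 was 2.42 there against 0.11 to 0.80 elsewhere (gap over range 0.703), that of ric-4 spot 11178 was 1.72 against -0.18 to 0.52 (0.633), and that of rab-3 spot 5819 was -0.92 against -0.21 to -0.02 (0.789). In the deposited log ratios, the values matched to that array were present for 1 of the 11 member probes, unc-13 spot 11764 (0.18), against 8 to 11 on the other arrays.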

How the results depend on the processing

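The count of 0 called member probes held in all alternatives but 3. It was 1 of 11 with scale normalisation between arrays (snb-1 spot 4485, 0.65, adjusted p = 0.0364), where 1281 of all 11033 tested probes were called. It was 0 to 2 over the fits that each left out 1 array. With array weights it was 5 of 11, where 5005 of all 11033 were called, so the members were near the share over the array. The 5 were snb-1 spot 4485 (0.55) and rab-3 spot 13164 (0.44) higher, and snb-1 spot 6421 (-0.28), unc-64 (-0.25) and unc-10 (-0.23) lower. The estimation of those weights did not converge and gave CPF in Cy3 replicate 2 a weight of 27.4 and CPF in Cy3 replicate 1 a weight of 0.142. The median over member genes, -0.07, became -0.28 where a probe had to be above background in all 12 channels, as 4 member probes then remained, and lay between -0.14 and 0.05 under the other alternatives.

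Calls over the array, 386 in all, were 243 without background correction, 233 with plain subtraction, 54 with median centring, 1281 with scale normalisation, 256 with all 12 channels required, 205 with no dye term, 8 with the study's linear model, 5005 with array weights, 1512 with robust regression, 712 from the deposited ratios, 629 from the CPF in Cy5 arrays alone, 20 from the CPF in Cy3 arrays alone, and 58 to 1323 without 1 array. Their balance also turned, with 147 higher and 239 lower in all, but 393 and 236 from the CPF in Cy5 arrays alone, 418 and 388 when CPF in Cy3 replicate 1 was left out and 967 and 356 when CPF in Cy3 replicate 3 was. At the study's own threshold of 0.01, without adjustment, that linear model called 89 probes (0.807%), 0 of them members.

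Of 257 values of single member probes under alternatives, 242 kept their sign and side of the threshold and 8 passed it. Many of the 242 could not have changed sign. Fitted ratios stayed the same with no normalisation between arrays, no dye term, the replicate number as a block, or another detection filter. The deposited ratios took their sign from the array that each column matched, so they could not turn as a set. Alternatives with few calls over the array also left a member little room to pass the threshold. The sign turned in 7, all for ratios near 0. These were unc-18 with median spot intensity (-0.03), array weights (-0.0058) and only the CPF in Cy5 arrays (-0.10), cpx-1 with array weights (-0.02), unc-10 from only the CPF in Cy5 arrays (0.0099), and unc-13 with median centring (0.03) and from only the CPF in Cy3 arrays (0.05). The cause was not tested. At 1 and 3 background SDs, chosen after seeing the data, 12 and 11 member probes passed the detection filter. The differences between probes without CPF in Cy3 replicate 1 were also chosen after seeing the data.

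The shared replicate numbers were not shown to pair arrays of opposite dye, whose deviations correlated at 0.103, -0.0788 and 0.271. With the replicate number as a block, 470 probes and 0 member probes were called, and the member median was -0.07. Of the called genes named here, msp-50, msp-63 and oma-2 lost their calls under the block and scm-1, cpr-1 and gld-1 kept theirs.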
